A study of Mus musculus with 12 samples.

Results

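Genes of sebaceous gland lipid synthesis were followed across cultured keratinocytes, newborn skin and 30-day skin of the mouse. The 7 genes were Elovl3, Scd1, Scd2, Scd3, Dgat2, Soat1 and Defb6, and their members were all probe sets that the platform annotation assigns to these symbols alone. Probe sets were found for 6 of the 7 genes, 11 in number out of 22626 tested. Soat1, the enzyme that esterifies cholesterol, is not analysed here because no probe set carried its symbol. Elovl3 and Defb6 had 1 probe set each, Scd1, Scd3 and Dgat2 had 2 each, and Scd2 had 3.

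Sebaceous glands open into the hair follicle and release sebum, an oily mixture of triglycerides, wax esters and cholesterol esters, when their cells burst. Fatty acids for sebum are lengthened by elongases such as Elovl3, given a double bond by stearoyl-CoA desaturases of the Scd family, and joined to glycerol or to alcohols by acyltransferases such as Dgat2. The asebia mouse, which lacks functional Scd1, has stunted sebaceous glands and loses hair. Defb6 encodes a beta-defensin, a small antimicrobial peptide. It makes no lipid, and the name of the group does not describe it.

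Each of 12 arrays held RNA of 1 sample. The 5 cultures were primary keratinocytes of newborn mice, each a pool of cells from 5 mice, held at low calcium for at most 3 days and never passaged. Cultures 1 and 2 came from mice of mixed C57, DBA and FVB background and cultures 3, 4 and 5 from FVB mice. Both samples of newborn skin were FVB, and all 5 samples of 30-day skin were of the mixed background. Strain and age of the skin samples therefore cannot be told apart. The labels name no treatment or introduced allele. Nor do they tie each skin sample to its own animal, and the p-values then cover no more than sample-to-sample spread, part of which may be technical. In whole skin, fewer cells of a type and less RNA per cell cannot be told apart.

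The values are RMA expression levels on a log2 scale, in which a difference of 1 is a doubling. They carry no detection call, and the number of arrays limits the precision. Array medians lay between 5.86 and 6.01. Replicate 1 of 30-day skin stood apart, with a 3' actin probe set 1.74 above the 5' one, where its 4 fellow arrays had 0.67 to 0.82. It also had more 18S rRNA signal, 8.16 against at most 5.93 in those 4 arrays. This actin gap, a sign of RNA quality, was 0.99 and 1.14 in newborn skin, 0.21 and 0.35 in mixed-strain cultures and 0.56 to 0.74 in FVB cultures. It thus differed between the groups compared here, and its part in their differences was not tested. Markers followed the labels. The basal keratin Krt5 averaged 13.14 in culture, 12.24 in newborn skin and 11.86 in 30-day skin, whereas the dermal collagen Col1a1 averaged 6.92, 12.56 and 12.95, and the fat cell hormone Adipoq 3.75, 10.98 and 9.69.

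Culture was compared with each skin group, and the skin groups with each other. A probe set was called where limma's p, adjusted by Benjamini-Hochberg over all 22626 probe sets, was under 0.05. These comparisons share arrays and are not independent of each other. Relative to 30-day skin, 8 of the 11 probe sets were called lower in culture and 2 higher, beside 18.2% and 25.1% of all probe sets. Relative to newborn skin, 5 were called lower in culture and 2 higher, beside 14.7% and 17.6% of all. Between the skin groups, 4 were called higher in 30-day skin, against 4.75% of all probe sets, and 0 lower, against 7.36%. At an unadjusted limma p under 0.05 these last counts were 6 and 0. The median difference of the 11 probe sets was -1.19 for culture minus 30-day skin, -0.40 for culture minus newborn skin and 0.78 for 30-day minus newborn skin, while that of all probe sets was 0.03, 0.04 and 0.00.

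**Figure D1:**
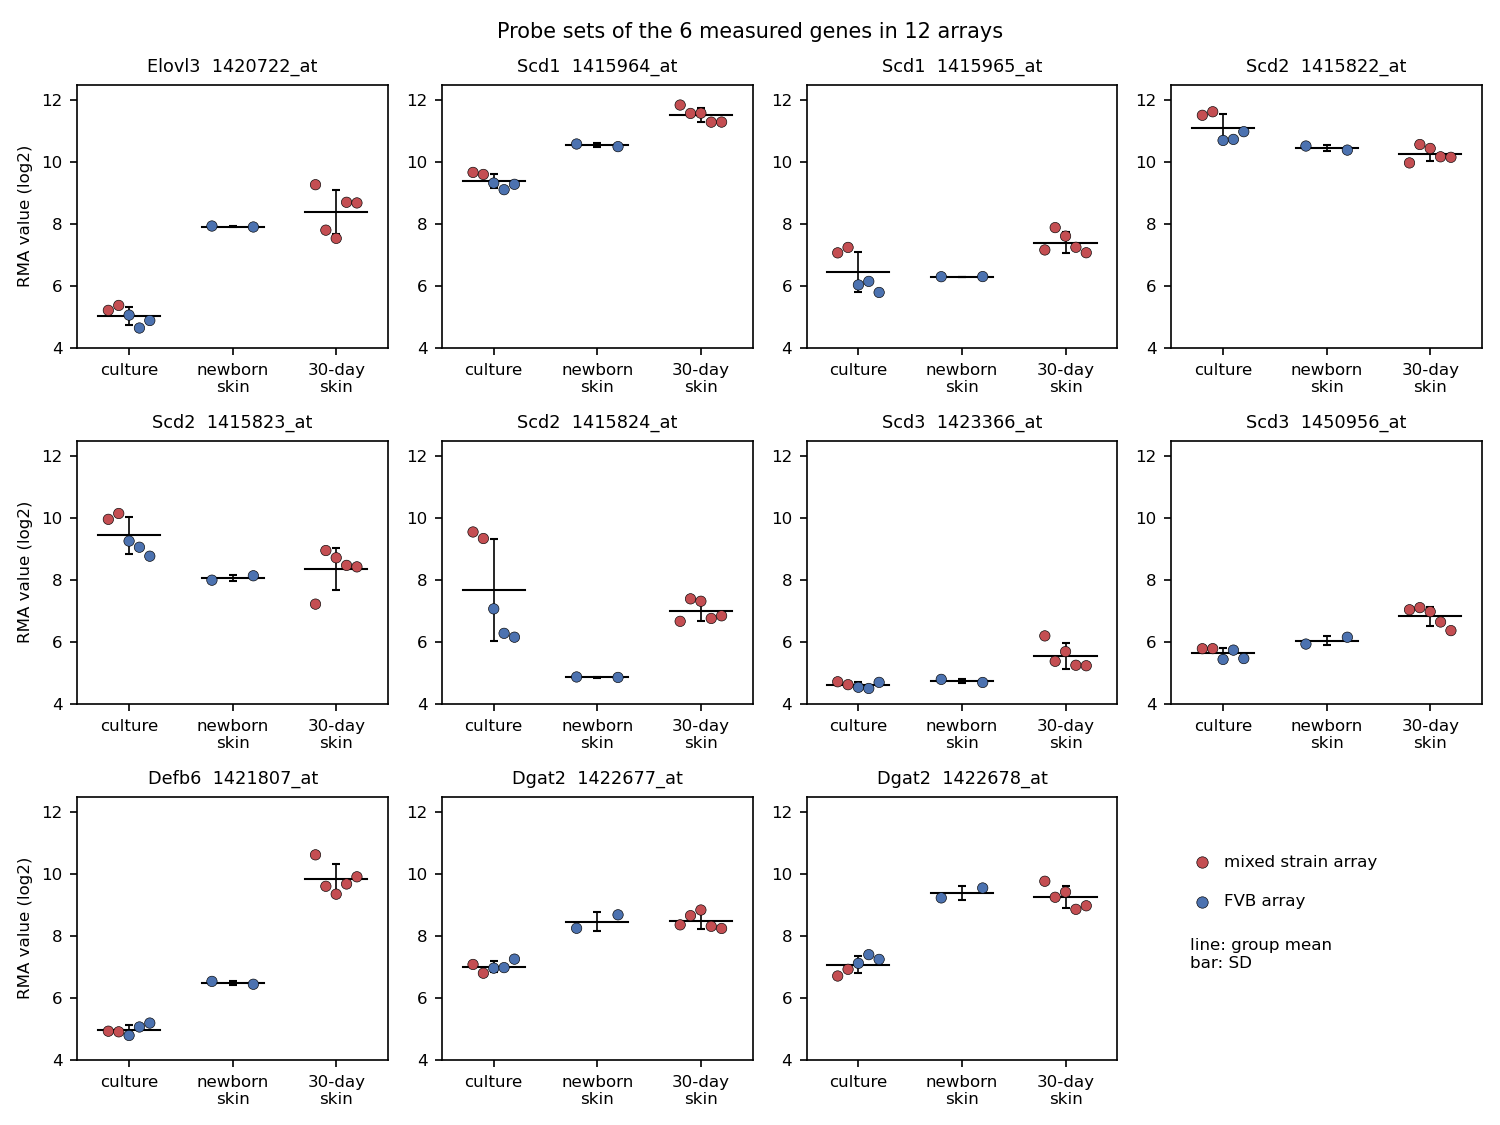
RMA values (log2) of the 11 probe sets in each of the 12 arrays by group, coloured by strain, with the group mean as a line and the SD as a bar. Defb6 lies at 4.79 to 5.19 in culture, 6.44 and 6.54 in newborn skin and 9.35 to 10.62 in 30-day skin, and the mixed-strain cultures stand above the FVB cultures in all 3 Scd2 panels.

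Counted by arrays that did not overlap, 7 probe sets were lower in every culture than in every sample of 30-day skin and 1 was higher, beside 13.9% and 18.6% of all probe sets. Against newborn skin these counts were 6 and 3, beside 20.0% and 25.5%. In 30-day skin 6 were above both newborn samples and 0 below, beside 14.6% and 17.6%. The lipid genes did not share 1 pattern. By group means, Elovl3 and Dgat2 were high in skin of both ages, Scd1 and Scd3 were highest in 30-day skin, and Scd2 was highest in culture. Culture and 30-day arrays overlapped for Scd1 1415965_at and for Scd2 1415823_at and 1415824_at.

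Markers of other cells differed between the same groups, and their part in the differences of the lipid genes was not tested. All 8 suprabasal epidermis markers were called lower in culture than in either skin group, and between the ages 6 were called lower and 2 higher in 30-day skin. Their mean was 5.88 to 6.49 in culture, 10.24 and 10.25 in newborn skin and 9.34 to 9.89 in 30-day skin. Of 9 macrophage markers, 8 were called lower in culture than in either skin group, and 3 were called higher and 0 lower in 30-day than in newborn skin (4 and 1 at an unadjusted limma p under 0.05). Their mean was at most 5.43 in culture, 7.21 and 7.27 in newborn skin and 7.57 to 7.87 in 30-day skin.

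Elovl3 makes very long-chain saturated and monounsaturated fatty acids. It is known from sebaceous glands and brown fat, and mice without it have sparse hair and altered sebum. Its probe set 1420722_at read 5.21, 5.37, 5.06, 4.64 and 4.89 in cultures 1 to 5, 7.94 and 7.90 in newborn skin, and 9.27, 7.80, 7.54, 8.70 and 8.68 in 30-day skin. Every skin sample was above every culture, and the 30-day samples lay on both sides of the newborn pair. Elovl3 in culture differed from newborn skin by -2.88 ± 0.36 (SE), with a limma adjusted p of 2.96e-05, and from 30-day skin by -3.36 ± 0.27 (limma adjusted p 2.78e-07). The latter is 10.3-fold, with every culture below the array medians of 5.86 to 6.01 and no detection call, so the fold is uncertain. Between 30-day and newborn skin the difference was 0.48 ± 0.36 (limma adjusted p 0.471), and it was 0.26 without replicate 1 of 30-day skin.

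The 30-day samples differed more among themselves for Elovl3 than for the other genes, with an SD of 0.71 around a mean of 8.40 (n = 5). Replicates 2 and 3, at 7.80 and 7.54, were the lowest and were also among the most alike arrays of the series, with a Pearson correlation of 0.995 over all probe sets. Hair and brown fat markers also varied over the same samples. The mean of 9 hair shaft markers was 11.30, 11.21, 11.19, 11.96 and 11.95 in 30-day replicates 1 to 5, and 9.55 and 9.53 in newborn skin. All 9 hair shaft markers were called higher in 30-day than in newborn skin, Krt33a among them by 1.93 ± 0.23 (limma adjusted p 0.000128). The mean of 7 brown adipocyte markers was 5.89 to 6.17 in 30-day skin, 6.42 and 6.52 in newborn skin and 4.91 to 5.06 in culture. Ucp1, the defining protein of brown fat, was called lower in 30-day than in newborn skin by limma, at 5.25 ± 0.10 (SD, n = 5) against 6.41 ± 0.04 (SD, n = 2), and averaged 5.23 in culture. The part of hair or brown fat in the Elovl3 levels was not tested.

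Dgat2 catalyses the last step of triglyceride synthesis, and mice without it have little fat and a leaky skin barrier. Probe set 1422678_at read 6.71, 6.93, 7.12, 7.40 and 7.25 in culture, 9.23 and 9.55 in newborn skin, and 9.77, 9.25, 9.42, 8.86 and 8.98 in 30-day skin. Probe set 1422677_at read 7.08, 6.80, 6.96, 6.98 and 7.25 in culture, 8.25 and 8.68 in newborn skin, and 8.36, 8.66, 8.84, 8.31 and 8.24 in 30-day skin. By both probe sets every culture was below every skin sample, and the skin groups overlapped. Culture differed from newborn skin by -2.31 ± 0.23 and -1.45 ± 0.17, with limma adjusted p of 3.17e-06 and 2.16e-05. From 30-day skin it differed by -2.17 ± 0.17 and -1.47 ± 0.13, with limma adjusted p of 2.19e-07 and 8.03e-07. The 30-day minus newborn differences were -0.14 ± 0.23 and 0.02 ± 0.17, neither called (limma adjusted p 0.787 and 0.973).

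Dgat2 is also a gene of fat cells. The mean of 8 white adipocyte markers was 4.80 to 4.98 in culture, 9.33 and 9.36 in newborn skin and 8.48 to 9.08 in 30-day skin, and all 8 were called lower in culture than in either skin group. Between the ages 3 of the 8 were called lower in 30-day skin and 0 higher (also 0 at an unadjusted limma p under 0.05), with Adipoq at a difference of -1.29 ± 0.25 (limma adjusted p 0.00427). The part of fat cells in the Dgat2 levels was not tested.

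**Figure D2:**
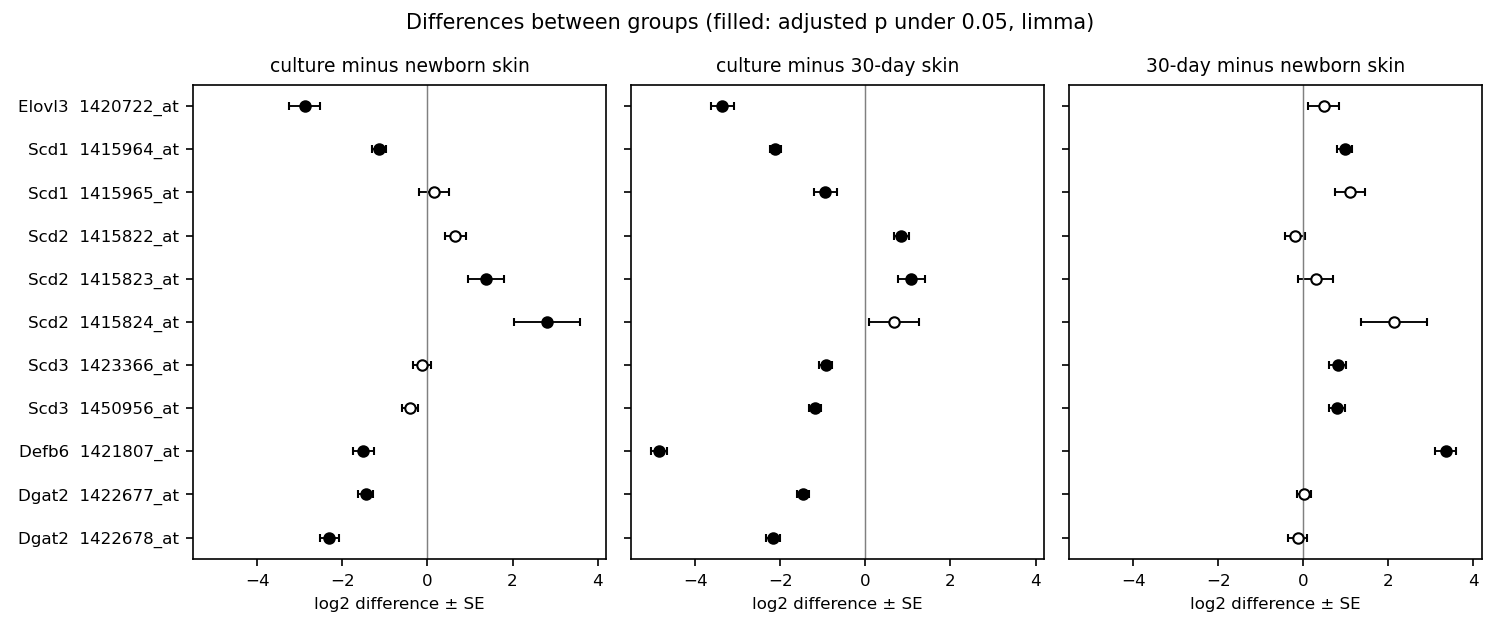
Log2 differences with SE of the 11 probe sets for culture minus newborn skin, culture minus 30-day skin and 30-day minus newborn skin, with filled points for those called by limma. Elovl3, Dgat2 and Defb6 lie left of 0 in both culture panels, Scd2 lies right of 0, and in the skin panel the filled points are Scd1, Scd3 and Defb6.

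The Scd enzymes place a double bond in saturated fatty acids, and the mouse has 4 such genes side by side. Scd3, Scd2, Scd4 and Scd1 follow each other on chromosome 19 with 0 other protein-coding genes between them, per the RefSeq gene table, and Elovl3 lies on the same chromosome. Scd4 is not analysed here. The genes are close copies of one another, so probe sets may share signal between them, and a value for 1 Scd gene is uncertain for that reason.

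Scd1, the desaturase of adult liver, fat and sebaceous gland, was read by 1415964_at at 9.66, 9.60, 9.32, 9.11 and 9.28 in culture, 10.58 and 10.50 in newborn skin, and 11.84, 11.57, 11.58, 11.29 and 11.29 in 30-day skin. No groups overlapped, and the order was culture, newborn skin, 30-day skin. Culture was below newborn skin by a difference of -1.14 ± 0.17 (limma adjusted p 0.00014) and below 30-day skin by one of -2.12 ± 0.13 (limma adjusted p 1.55e-08, 4.34-fold). The difference from newborn skin was -0.49 with the median of both Scd1 probe sets, which ended the call (limma adjusted p 0.122). It was -1.86 with arrays centred on epithelial junction genes, a centring that moved the median gene by -0.71. The 30-day samples exceeded the newborn ones by 0.97 ± 0.17 (limma adjusted p 0.00215), and by 0.89 (limma adjusted p 0.00198) without replicate 1. With the strain difference of the cultures applied to skin, as if it were the same there, the difference over all samples was 0.58. Its adjusted p was 0.112 by limma, so the call was lost.

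The other Scd1 probe set, 1415965_at, separated the samples differently. It read 7.07 and 7.24 in the mixed-strain cultures and 6.03, 6.15 and 5.79 in the FVB cultures. Newborn skin, also FVB, read 6.30 and 6.30, and 30-day skin, also mixed, read 7.16, 7.88, 7.61, 7.25 and 7.07. All 7 mixed-strain samples lay above all 5 FVB samples, whether culture or skin. The mixed-strain cultures exceeded the FVB cultures by 1.17 ± 0.21 (limma adjusted p 0.00367). Their actin gap also differed, and its part was not tested. The 30-day minus newborn difference was 1.09 ± 0.35, which missed the threshold (limma adjusted p 0.0578). Within strain, culture minus skin was -0.31 ± 0.21 for FVB and -0.24 ± 0.19 for the mixed background, neither called (limma adjusted p 0.282 and 0.378). With all cultures pooled, the difference from 30-day skin was -0.94 ± 0.26 and was called (limma adjusted p 0.00981), and that from newborn skin was 0.16 ± 0.35 and was not (limma adjusted p 0.797).

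Scd2, the desaturase known from brain and from neonatal tissues, was the one gene of the 6 with probe sets called higher in culture. Probe set 1415822_at read 11.51, 11.62, 10.70, 10.73 and 10.98 in culture, 10.52 and 10.38 in newborn skin, and 9.97, 10.56, 10.44, 10.17 and 10.15 in 30-day skin. Every culture was above every skin sample, with the mixed-strain cultures highest. Culture exceeded 30-day skin by 0.85 ± 0.18 (limma adjusted p 0.00171), whereas the excess over newborn skin, 0.66 ± 0.24, fell just short (limma adjusted p 0.0524). The latter was -0.06 with arrays centred on epithelial junction genes, which moved the median gene by -0.71.

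The second Scd2 probe set, 1415823_at, read 9.96, 10.15, 9.26, 9.06 and 8.77 in culture, 7.99 and 8.14 in newborn skin, and 7.22, 8.95, 8.72, 8.47 and 8.42 in 30-day skin. It was called higher in culture than in newborn skin by 1.37 ± 0.42 (limma adjusted p 0.0214) and than in 30-day skin by 1.08 ± 0.32 (limma adjusted p 0.0127). Replicate 1 of 30-day skin was the lowest of all 12 arrays, and without it the second difference was 0.80 (limma adjusted p 0.0184). Without newborn replicate 1 or 2 the first call was lost (limma adjusted p 0.138 and 0.0984), as it was with junction centring, at 0.66 (limma adjusted p 0.0846). Junction centring also moved the median gene, by -0.71 for culture minus newborn skin. Within FVB, culture minus skin was 0.96 ± 0.36, not called (limma adjusted p 0.0544), and within the mixed background it was 1.69 ± 0.33 (limma adjusted p 0.00102).

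The third Scd2 probe set, 1415824_at, showed the widest spread of the 11 probe sets within culture. It read 9.55 and 9.34 in the mixed-strain cultures, 7.07, 6.28 and 6.16 in the FVB cultures, 4.87 and 4.86 in newborn skin, and 6.67, 7.39, 7.31, 6.76 and 6.85 in 30-day skin. The mixed-strain cultures exceeded the FVB cultures by 2.94 ± 0.26 (7.69-fold, limma adjusted p 2.30e-05), and the actin gap of these cultures differed as well. Within FVB, culture exceeded skin by 1.64 ± 0.26 (limma adjusted p 0.000236), and within the mixed background by 2.45 ± 0.24 (limma adjusted p 2.58e-06). With strains pooled, culture exceeded newborn skin by 2.81 ± 0.78 (limma adjusted p 0.0124), a call lost without either newborn replicate (limma adjusted p 0.0831 and 0.0842), and 30-day skin by 0.68 ± 0.59, not called (limma adjusted p 0.384). The 30-day minus newborn difference was 2.13 ± 0.78, not called (limma adjusted p 0.0981), and -0.81 after the strain difference of the cultures was taken off (limma adjusted p 0.206).

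Scd3 is a desaturase of sebaceous and Harderian glands. Probe set 1450956_at read 5.78, 5.79, 5.44, 5.74 and 5.47 in culture, 5.93 and 6.15 in newborn skin, and 7.04, 7.11, 6.98, 6.65 and 6.37 in 30-day skin. Probe set 1423366_at read 4.72, 4.62, 4.54, 4.50 and 4.70 in culture, 4.80 and 4.70 in newborn skin, and 6.20, 5.38, 5.69, 5.25 and 5.23 in 30-day skin. Every 30-day sample was above all other samples by both probe sets. The mean of 1423366_at over the 12 arrays lay at the 24.3 percentile of all probe sets.

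Against newborn skin, 30-day skin was higher by 0.78 ± 0.19 and 0.80 ± 0.21 (limma adjusted p 0.0143 and 0.0219). Against culture the differences, culture minus 30-day skin, were -1.19 ± 0.14 and -0.93 ± 0.16 (limma adjusted p 1.11e-05 and 0.000244). Culture minus newborn skin was -0.40 ± 0.19 and -0.13 ± 0.21, neither called (limma adjusted p 0.123 and 0.706). With junction centring both were called lower in culture, at -1.11 and -0.84 (limma adjusted p 0.00064 and 0.012). That centring moved the median gene by -0.71 in the same comparison, so these calls are not a result about Scd3. Without newborn replicate 1 or 2, both Scd3 probe sets lost the call between the ages, with limma adjusted p from 0.0774 to 0.2. Without replicate 1 of 30-day skin both kept it, at 0.73 and 0.64 (limma adjusted p 0.0194 and 0.00514).

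Scd3 and Defb6 were the genes whose probe sets were all called higher in 30-day than in newborn skin, so the 250 bases before their start sites are shown, from RefSeq on GRCm38.p6, plus strand, at chr19:44203038-44203287 for Scd3 and chr8:19225228-19225477 for Defb6. Capitals mark TATAA, 29 bases before the Defb6 start. Promoters were listed for 3 of the 7 genes.
Scd3: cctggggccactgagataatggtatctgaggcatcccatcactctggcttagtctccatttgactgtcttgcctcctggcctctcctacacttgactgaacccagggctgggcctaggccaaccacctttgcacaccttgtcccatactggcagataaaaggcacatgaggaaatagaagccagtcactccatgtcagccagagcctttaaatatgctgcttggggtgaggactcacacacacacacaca
Defb6: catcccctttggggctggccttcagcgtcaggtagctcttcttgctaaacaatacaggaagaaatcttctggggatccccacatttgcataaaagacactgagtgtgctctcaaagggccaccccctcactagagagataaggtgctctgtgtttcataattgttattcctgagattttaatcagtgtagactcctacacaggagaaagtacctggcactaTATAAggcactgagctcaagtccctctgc

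Both 300-base windows, which run from 250 bases before to 50 after the start, were searched on both strands for the box CCAAT, the E-box CACGTG, the string TATAAA, the GC box GGGCGG, the sterol element core TCACNCCAC and the nuclear receptor repeat DR1. None of these strings was found in either window. Of 32851 promoters of the same length, 37.4% hold the first, 7.2% the E-box, 13.6% the third, 35.7% the GC box and 1.2% the sterol core, and DR1 is in 13 promoters. The shorter TATAA, contained in the third string and searched after that gave no match, is in 24.9% of all promoters, in that of Defb6 and not in that of Scd3. No measurement of binding or chromatin was made, and a match in letters is a description.

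Because the Scd genes moved differently, the differences between their changes were tested, each gene by its brightest probe set, with two-sided exact permutation tests over the arrays and adjustment over 9 tests. From 30-day skin to culture, Scd1 changed by -2.96 relative to Scd2, by -0.93 relative to Scd3, and Scd2 by 2.03 relative to Scd3. For each of these the exact permutation p was 0.00794, the smallest that 252 relabellings allow, and the adjusted p was 0.0238. From newborn to 30-day skin, Scd1 changed by 1.16 relative to Scd2, and Scd2 by -0.98 relative to Scd3. Both had the smallest exact p that 21 relabellings allow, 0.0476, and an adjusted p of 0.0536, which missed the threshold. Scd1 relative to Scd3 changed by 0.19 (exact permutation p 0.333), with overlapping arrays. From newborn skin to culture the 3 values were -1.80, -0.74 and 1.06, each at the smallest p of 0.0476 (exact permutation, adjusted 0.0536).

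Defb6 showed the greatest difference of the 11 probe sets in both comparisons that involve 30-day skin. Probe set 1421807_at read 4.93, 4.91, 4.79, 5.07 and 5.19 in culture, 6.54 and 6.44 in newborn skin, and 10.62, 9.60, 9.35, 9.68 and 9.91 in 30-day skin. No groups overlapped. Defb6 was higher in 30-day than in newborn skin by 3.34 ± 0.25 (10.1-fold, limma adjusted p 1.68e-06) and 28.9-fold higher in 30-day skin than in culture, a culture minus 30-day difference of -4.85 ± 0.19 (limma adjusted p 1.46e-10). Culture minus newborn skin was -1.51 ± 0.25 (limma adjusted p 0.000293). Every culture read below the array medians of 5.86 to 6.01, without a detection call, so the fold against culture is uncertain. Replicate 1 of 30-day skin was the highest, and without it the difference between the ages was 3.15 (limma adjusted p 3.41e-08).

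Defb6 was first described in skeletal muscle, and muscle markers were present in the skin samples. The mean of 12 skeletal muscle markers was 4.98 to 5.15 in culture, 9.32 and 9.41 in newborn skin, and 11.07, 11.22, 11.18, 10.38 and 10.42 in 30-day replicates 1 to 5. Of the 12, 5 were called higher in 30-day than in newborn skin and 0 lower (also 0 at an unadjusted limma p under 0.05). The muscle actin Acta1 was not called, at 12.61 ± 0.31 (SD, n = 5) against 12.74 ± 0.05 (SD, n = 2), with a limma adjusted p of 0.852. Within 30-day skin, replicates 4 and 5 had the lowest muscle means and Defb6 at 9.68 and 9.91, above replicates 2 and 3. Replicate 1 had the highest Defb6, at 10.62, with a muscle mean of 11.07. The part of muscle in the Defb6 level was not tested. Of 12 other beta-defensins measured, none was called in either direction between the skin groups or between culture and 30-day skin, and in each of these comparisons limma gave 1 an unadjusted p under 0.05 in each direction. Defb1 was called higher in culture than in newborn skin by 0.98 ± 0.22 (limma adjusted p 0.00305), and its 30-day minus newborn difference was 0.59 ± 0.22 (limma adjusted p 0.105).

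In culture, with 2 mixed-strain and 3 FVB arrays, strain could be compared apart from skin age, but not from the actin gap. That gap was 0.21 and 0.35 in the mixed-strain and 0.56 to 0.74 in the FVB cultures. The 2 mixed-strain arrays were also very alike, with a Pearson correlation of 0.996. Strain and such other differences between the cultures cannot be told apart. Of the 11 probe sets, 3 were called higher in mixed-strain than in FVB cultures, against 3.91% of all, and 0 lower, against 5.30%. At an unadjusted limma p under 0.05 these counts were 5 and 0. The 3 were Scd1 1415965_at and Scd2 1415822_at and 1415824_at. The Scd2 probe set 1415822_at differed by 0.76 ± 0.16 (limma adjusted p 0.0106), and 1415823_at by 1.02 ± 0.36 without a call (limma adjusted p 0.0978). Without culture 1 or 2 the call of 1415822_at was lost (limma adjusted p 0.08 and 0.111), and without culture 2 so was that of 1415965_at (limma adjusted p 0.056). By arrays that did not overlap, 7 probe sets were higher and 1 lower in the mixed-strain cultures, beside 22.0% and 24.0% of all probe sets. Elovl3 differed by 0.43 ± 0.38, Defb6 by -0.10 ± 0.27, and Dgat2 1422678_at by -0.44 ± 0.22, none called (limma adjusted p 0.53, 0.869 and 0.247). Some cell type markers were also called between the culture strains. The share of all genes called in this comparison is not given here. Of 7 fibroblast markers 3 were called higher in the mixed-strain cultures, with means of 6.21 and 6.24 against 5.65 to 5.76, and of 8 basal markers 1 was called lower, with means of 10.22 and 10.30 against 10.64 to 10.71. Of 8 suprabasal markers 2 were called lower, of 9 macrophage markers 1 higher, of 12 skeletal muscle markers 1 higher and of 8 white adipocyte markers 1 higher. The medians of these lists were -0.31, 0.12, -0.08 and 0.06 in that order, and 1 called gene does not stand for a cell type. The white adipocyte marker called was Fabp4, at 1.03 (limma adjusted p 0.00105), named after its value was seen. The suprabasal keratin Krt10 was called lower in the mixed-strain cultures, with a difference of -1.17 ± 0.12 (limma adjusted p 7.50e-05) and the macrophage lysozyme Lyz2 higher by 1.27 ± 0.15 (limma adjusted p 0.000262). The part of these cell types in the Scd differences was not tested.

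**Figure D3:**
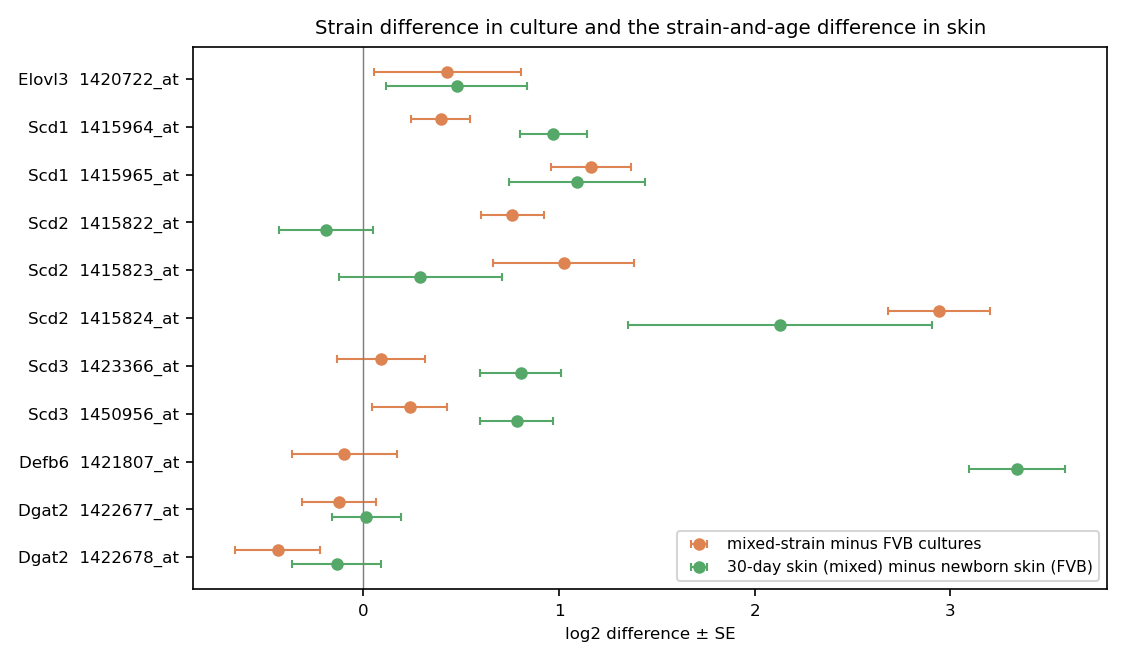
Log2 differences with SE of the 11 probe sets for mixed-strain minus FVB cultures and for 30-day skin (mixed) minus newborn skin (FVB). Scd1 1415965_at lies at 1.17 and 1.09 in the 2 contrasts, whereas Defb6 lies at -0.10 in culture and 3.34 in skin.

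Culture and skin of the same strain were then compared, FVB culture with newborn skin and mixed-strain culture with 30-day skin, and the difference between these contrasts was tested by limma in a comparison chosen after seeing the data. It was called for 2 of the 11 probe sets, beside 8.48% of all. Defb6 was lower in culture than in skin by a difference of -1.47 ± 0.27 within FVB and -4.91 ± 0.25 within the mixed background, and the contrasts differed by -3.44 ± 0.36 (limma adjusted p 5.36e-05). Scd2 1415822_at differed between culture and skin by 0.35 ± 0.16 within FVB, which was not called (limma adjusted p 0.115), and by 1.30 ± 0.15 within the mixed background (limma adjusted p 1.02e-05). Those contrasts differed by 0.95 ± 0.22 (limma adjusted p 0.0155). For Elovl3 the values were -3.05 ± 0.38 and -3.10 ± 0.35, and for Dgat2 1422678_at they were -2.13 ± 0.22 and -2.44 ± 0.20, all called. The differences between contrasts, -0.05 ± 0.51 and -0.30 ± 0.30, were not called (limma adjusted p 0.975 and 0.636). With its sign turned, this difference between contrasts is also the 30-day minus newborn difference after the strain difference of the cultures is taken off. That assumes strain acts alike in cultured cells and whole skin, which was not tested. It also takes the whole culture difference as strain, although the culture strains differed in the actin gap as well. On that reading Defb6 remained called at 3.44, Scd2 1415822_at was called lower at -0.95, and the Scd3 probe sets, at 0.55 and 0.71, lost their calls (limma adjusted p 0.257 and 0.197).

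Other genes of the same pathways were taken from lists, each gene by its brightest probe set. By that rule 3 of the 6 genes above, Scd1, Scd3 and Defb6, were called higher in 30-day than in newborn skin, beside 5.46% of all 12393 genes, and 0 lower, beside 8.91%. For culture against 30-day skin 1 was called higher and 5 lower, beside 26.1% and 21.4%, and against newborn skin 0 higher and 4 lower, beside 17.3% and 18.1%. The highest-mean probe set of Scd2 is 1415822_at.

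Of 23 other measured genes of fatty acid synthesis, elongation and desaturation, 5 were called higher and 2 lower in 30-day than in newborn skin, with a median of 0.26 against -0.01 for all genes. Thrsp, which promotes lipogenesis, was higher by 2.09 ± 0.32 (limma adjusted p 0.000903), Me1, which supplies NADPH for it, by 1.25 ± 0.16 (limma adjusted p 0.000212), and Acss2, which makes acetyl-CoA from acetate, by 0.88 ± 0.15 (limma adjusted p 0.00149). The elongases Elovl1 and Elovl7 were lower, with differences of -1.25 ± 0.12 and -0.84 ± 0.25 (limma adjusted p 2.11e-05 and 0.0434). Against 30-day skin, 4 of the 23 were called higher in culture and 11 lower. Thrsp differed by -3.51, the elongase Elovl6 by -3.28 and Acss2 by -2.43 in culture minus 30-day skin, whereas Acsl4 was higher in culture by 0.81, Hsd17b12 by 0.39 and Acaca by 0.37. Against newborn skin 8 were called higher in culture and 8 lower.

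Of 27 genes of neutral lipid synthesis, droplets and lipolysis, 2 were called higher and 7 lower in 30-day than in newborn skin, with a median of -0.27. Lpin3 and Gpam, of glycerolipid synthesis, were higher by 1.15 ± 0.27 and 0.52 ± 0.15 (limma adjusted p 0.0125 and 0.0342). G0s2, an inhibitor of lipolysis, was lower with a difference of -1.53 ± 0.20 (limma adjusted p 0.000282), as were the droplet proteins Cidec, at -0.95 ± 0.16, and Cidea, at -0.71 ± 0.17 (limma adjusted p 0.00166 and 0.0153). Cidec is also among the white and Cidea among the brown adipocyte markers. In culture minus 30-day skin 4 were called higher and 15 lower, with Mgll at -2.78, Plin4 at -2.42 and Cidec at -2.23, and with Plin2 at 1.17, Plin3 at 1.11 and Far1 at 0.58. Against newborn skin 2 were called higher in culture and 14 lower.

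Of 24 regulators and markers of the sebaceous gland, 2 were called higher and 3 lower in 30-day than in newborn skin, with a median of 0.04. Insig2, which retains the sterol regulators in the endoplasmic reticulum, was higher by 1.36 ± 0.21 (limma adjusted p 0.000844), and Prdm1 by 0.54 ± 0.15 (limma adjusted p 0.033). Pparg, the receptor that drives fat cell and sebocyte differentiation, was lower with a difference of -1.13 ± 0.18 (limma adjusted p 0.00108), Cyp11a1 with -0.53 ± 0.10 and Mbtps1 with -0.48 ± 0.11 (limma adjusted p 0.00401 and 0.0153). In culture minus 30-day skin 2 were called higher and 14 lower. Apoc1 differed by -2.98, Fa2h, which hydroxylates fatty acids, by -2.87 and the infundibular and duct keratin Krt79 by -2.68, while Plet1 was higher in culture by 1.66 and Scap, the escort of the sterol regulators, by 0.77. Against newborn skin 2 were called higher in culture and 12 lower.

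Arrays were also centred, in place of the deposited scale, on 19 epithelial junction genes, which themselves differed between the groups. Of these, 10 were called higher and 1 lower in culture than in newborn skin, and 10 and 4 than in 30-day skin. In 30-day skin 6 were called higher and 0 lower than in newborn skin. Their mean was 8.59 in 30-day replicate 1 and 8.97 to 9.06 in its fellows. On this scale the median gene shifted by -0.71 for culture minus newborn skin, -0.29 for culture minus 30-day skin and -0.42 for 30-day minus newborn skin. Under it the probe sets called between the ages were Defb6, higher by 2.92, and Scd2 1415822_at, lower at -0.61 (limma adjusted p 8.87e-06 and 0.0391), and the calls of Scd1 1415964_at, at 0.55, and of both Scd3 probe sets, at 0.36 and 0.38, were lost (limma adjusted p 0.0579, 0.186 and 0.24). Lists between the ages then had 2 higher and 6 lower for fatty acid synthesis, 1 and 19 for neutral lipids, 1 and 11 for the regulators, and 0 and 4 for the beta-defensins. For culture against newborn skin they had 0 and 16, 0 and 24, 1 and 21, and 0 and 11, in the same order. For culture against 30-day skin they had 0 and 12, 2 and 18, 2 and 18, and 0 and 4. The split of the 11 probe sets was 2 higher and 8 lower in culture against 30-day skin, as before, and 1 higher and 7 lower against newborn skin. The share of all probe sets or genes called under this centring is not given here. Because the median gene moved down in each comparison, the shares given earlier do not apply. These counts are therefore not a result about the members or lists.

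**Figure D4:**
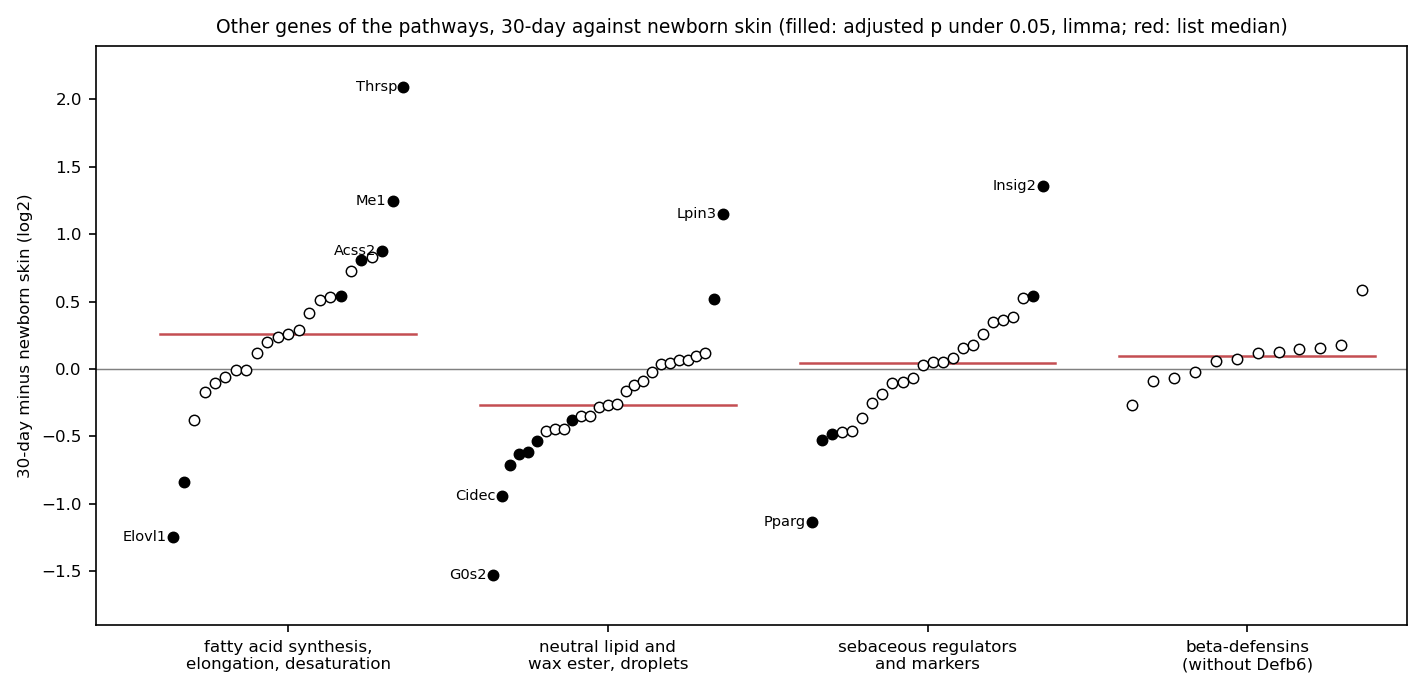
Log2 difference of 30-day minus newborn skin for each measured gene of 4 lists, ordered within each list, with filled points for genes called by limma and a red line at the list median. Called genes with the greatest differences are named, from G0s2 at -1.53 to Thrsp at 2.09, and no beta-defensin point is filled.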

How the data were processed

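RNA of 12 mouse samples was measured on 1 Affymetrix array each, with groups read from the titles. Per the submitters' processing notes, the authors made the deposited log2 values with RMA. That method includes background correction, quantile normalisation and a summary per probe set, and it assumes similar RNA distributions in all samples. Its version is not given in the sources used here. Of 22690 probe sets, 64 controls were left out. The platform annotation gave 1 symbol for 20380 of the rest, several for 691 and none for 1555.

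Members and lists were chosen with earlier results of these data known. Limma 3.58.1 in R 4.3.3 (lmFit, eBayes, two-sided) was fitted to all 22626 probe sets and 12 arrays with 3 group means, and with 4 means to separate culture strains, adjusting by Benjamini-Hochberg at a threshold of 0.05. Errors of differences are SEs, and errors of levels are SDs. The fit was tested on simulated data. No 2 arrays were identical. Alternatives covered normalisation, centring, a filter at the 40th percentile of mean level, probe set rules, variance models, array weights, strain, the replicate number as a block, a threshold of 0.01 and each array left out in turn. Averaging the most alike arrays was added after seeing the data. All members were named. From each list up to 3 called genes per direction with the largest changes were named, along with fixed markers and the genes of the most similar pattern. A planned comparison of proteins was not made, because protein sequences were not used here. Figures used matplotlib 3.10.9 in Python 3.11.15, with pandas 2.3.3 and numpy 2.4.6.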

Additional observations from a re-analysis of the deposited data

Results flagged for a closer look

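The difference between culture and skin was not the same in the strain-matched pairs for 2 probe sets. For Defb6 it was -1.47 within FVB (culture minus newborn skin) and -4.91 within the mixed background (culture minus 30-day skin), a difference of -3.44 ± 0.36 (limma adjusted p 5.36e-05). For Scd2 1415822_at it was 0.35 and 1.30, a difference of 0.95 ± 0.22 (limma adjusted p 0.0155). Strain and the age of the skin cannot be told apart in this contrast. In groups of 4 or 5 samples, Dixon's criterion flagged no single array of any member. Scd2 1415823_at still read 7.22 in replicate 1 of 30-day skin, where the other replicates read 8.42 to 8.95.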

How the results depend on the processing

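No called difference of a member changed sign under the alternatives run. Defb6, Elovl3 and both Dgat2 probe sets kept every call they had under all alternatives in which they were fitted. Scd1 1415964_at kept its call in culture against 30-day skin in all 26 alternatives. It lost that of 30-day against newborn skin in 2 of 25. The counts that follow are given without the share of all probe sets or genes called under the same setting. They describe the settings and are not a result about the members. For culture against newborn skin, the count of probe sets higher, 2, became 1 with epithelial junction centring, strain as a covariate, same-strain cultures only or close arrays averaged, and 0 at a threshold of 0.01. Leaving out single arrays gave 0 to 3, with 0 without either newborn sample. The count of genes higher by the brightest probe set, 0, became 1 with the percentile filter, renewed quantile normalisation, median centring, a trended robust variance, array weights, the replicate block, 1 probe set per gene or the median of a gene's probe sets, and was 0 to 1 over single arrays left out (1 without culture 3, culture 4 or 30-day replicate 1). For culture against 30-day skin, probe sets higher became 1 at 0.01. For 30-day against newborn skin, probe sets higher, 4, became 1 and genes higher, 3, became 1 with epithelial junction centring and with the strain covariate, and both counts lower, 0, became 1. The probe set count was 2 at 0.01 and 2 to 6 over single arrays left out, with 2 without either newborn sample. Between culture strains, probe sets higher, 3, became 5 and genes higher, 1, became 2 with array weights, and genes became 0 at 0.01. Over single arrays left out these were 1 (without culture 2) to 5 (without 30-day replicate 1) and 0 to 2.

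The Scd1 minus Scd3 difference from 30-day skin to culture was -0.47 with the median of probe sets (exact permutation, adjusted p 0.0857). In place of the permutation test, limma on the gaps between the Scd genes called all 5 differences that had stood at the smallest exact p. They were 1.16 and -0.98 between the ages (limma adjusted p 4.16e-05 and 0.00027), and -1.80, -0.74 and 1.06 from newborn skin to culture (limma adjusted p 5.18e-08, 0.00339 and 0.000121). The gaps come from the same arrays and each follows from the others, so these limma tests are not independent. Their p-values may be too small and do not replace the exact ones.

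Arrays of different groups share replicate numbers, but same-numbered arrays did not deviate together (correlations of -0.28 to 0.20). The deviations of the 2 newborn samples mirror each other and those of the cultures carry strain, so this check cannot settle pairing. By the labels, same-numbered culture and newborn arrays differ in strain, as do newborn and 30-day arrays. With the replicate block, Scd1 1415965_at at 1.51 and Scd2 1415824_at at 3.03 were called between the ages (limma adjusted p 0.0122 and 0.0295), whereas with the strain covariate they were -0.07 and -0.81 (limma adjusted p 0.929 and 0.206). The block also called Scd2 1415822_at at 0.89 between culture and newborn skin (limma adjusted p 0.0257). The block and the strain covariate were not run for culture strains, and settings with 1 value per gene give no probe set count. The percentile filter removed Scd3 1423366_at. With 2 newborn samples, no exact test of culture or 30-day skin against newborn skin can go below 0.0476.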

Other observations

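The genes most alike Elovl3, Scd1 1415964_at and Scd2 1415822_at were listed by the root mean square difference of centred log2 values over the 12 arrays, which share groups and normalisation. Nearest to Elovl3 were the hair keratin Krt32, at 0.33, the fatty acid hydroxylase Fa2h, at 0.39, the elongase Elovl6, at 0.40, and Susd2, at 0.41. Krt32 averaged 5.87 in culture, 8.66 in newborn skin and 9.64 in 30-day skin, and Elovl6 averaged 6.74, 9.51 and 10.02. After these came Tspan13, Fap, Mrc1 and Timp2, the last at 0.45. Fap and Mrc1 mark fibroblasts and macrophages.

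Nearest to Scd1 were the claudin Cldn8, at 0.16, the sialyltransferase St6gal1 and the integrin-like Itgbl1, both at 0.19, and Cd52 and Cbr2, both at 0.20. Tmod4, a muscle tropomodulin, was also at 0.20. The lipid genes Gpam and Acss2 followed, both at 0.21. Acss2 averaged 4.76 in culture, 6.31 in newborn skin and 7.19 in 30-day skin.

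Nearest to Scd2 were the macrophage growth factor Csf1, at 0.11, and Cdc23, a subunit of the anaphase-promoting complex, at 0.15. Polr3c, Dcbld2, Gtse1, Arf4, Pafah1b2 and Prmt2 followed, at 0.16 to 0.18. Csf1 averaged 6.95 in culture, 6.34 in newborn skin and 6.03 in 30-day skin. No gene of the fatty acid or neutral lipid lists was among these 8.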
